A study of Mus musculus with 6 samples.

Results

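The 10 genes described here belong to the insulin-like growth factor (IGF) axis. They are the binding protein genes Igfbp2, Igfbp3, Igfbp4, Igfbp5, Igfbp6 and Igfbp7, the receptor genes Igf1r and Igf2r, and the adaptor genes Irs1 and Irs2. They were chosen by name with earlier results of these data known, and are 10 of the 47643 gene IDs in the count files. All 10 had at least 1 count in at least 2 libraries and were tested, among 15792 genes. Igfbp5 and Igfbp6 met that minimum only through their day 7 libraries. The RNA came from organoids of the mouse submandibular salivary gland (mSGOs), epithelial structures grown in Matrigel from dissociated glands of C57BL/6 mice aged 8 to 12 weeks, which the methods of the study give as female. Every library came from untreated, non-irradiated mSGOs in WRY medium, which holds Wnt3a- and R-spondin1-conditioned medium, EGF, FGF2, N2, dexamethasone, Y27632 and insulin at 10 µg/mL. The groups were day 5 and day 7 of culture, with 3 libraries each from the same 3 mice, and the question was which of these genes differed between the days. Single cells were plated to start the cultures, so an mSGO holds only what grew from them and no intact gland.

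IGF1 and IGF2 are secreted growth factors that act through the receptor tyrosine kinase IGF1R. The binding proteins hold IGFs outside the cell, where they can keep them from the receptor, prolong their life or release them when a protease cuts the binding protein. IGF2R takes up IGF2 for breakdown and also sorts lysosomal enzymes. IRS1 and IRS2 dock on the activated IGF1 and insulin receptors and pass the signal to the PI3K-AKT pathway, which keeps FOXO transcription factors out of the nucleus and feeds mTORC1. In glandular epithelia the IGF axis is best known for its part in growth and survival.

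The binding protein genes lay in part beside each other. On GRCm39, Igfbp2 (ENSMUSG00000039323, chromosome 1, 72863606 to 72891634, plus strand) and Igfbp5 (ENSMUSG00000026185, chromosome 1, 72897091 to 72914043, minus strand) ended towards each other with 5456 bases between them. Igfbp3 (ENSMUSG00000020427, chromosome 11, 7156086 to 7164179, minus strand) lay in the same tail-to-tail way 3539 bases from Igfbp1, whose count was 0 in all 6 libraries. Igfbp4 (ENSMUSG00000017493) lay elsewhere on chromosome 11, at 98932064 to 98945218 on the plus strand. Igfbp6 (ENSMUSG00000023046) lay on chromosome 15 at 102052697 to 102057953 on the plus strand, and Igfbp7 (ENSMUSG00000036256) on chromosome 5 at 77493130 to 77555931 on the minus strand. The canonical transcripts of Igfbp2, Igfbp4, Igfbp5 and Igfbp6 had 4 exons each, and those of Igfbp3 and Igfbp7 had 5. Coding lengths of the 6 ran from 714 bases in Igfbp6 to 1083 in Igfbp7.

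The bases just before the start sites of Igfbp2, Igfbp4 and Igfbp6 are shown because these were the 3 genes of the 10 that passed the test between the days. Each line gives the 250 bases before the start of the canonical transcript, 5′ to 3′ on the gene's strand. Capitals mark matches to the letters searched on both strands. These were the TATA box TATAAA, the GC box GGGCGG, the FOXO core GTAAACA, the xenobiotic element core GCGTG and the AP-1 letters TGANTCA. The letters ACGTG were also searched, which are part of the E-box CACGTG but not a whole E-box. Matches to ACGTG and GCGTG can overlap each other.
Igfbp2 (chr1:72863399-72863648, plus strand): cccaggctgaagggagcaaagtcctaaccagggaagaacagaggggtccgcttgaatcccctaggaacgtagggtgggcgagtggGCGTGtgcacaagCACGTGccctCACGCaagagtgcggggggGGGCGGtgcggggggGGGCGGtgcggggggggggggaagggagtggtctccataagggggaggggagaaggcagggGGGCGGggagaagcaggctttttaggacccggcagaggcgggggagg
Igfbp4 (chr11:98931814-98932063, plus strand): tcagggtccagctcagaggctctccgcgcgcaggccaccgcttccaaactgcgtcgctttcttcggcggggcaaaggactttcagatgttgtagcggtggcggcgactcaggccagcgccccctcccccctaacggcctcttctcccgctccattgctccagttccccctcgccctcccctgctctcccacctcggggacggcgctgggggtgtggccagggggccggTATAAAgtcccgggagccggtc
Igfbp6 (chr15:102052447-102052696, plus strand): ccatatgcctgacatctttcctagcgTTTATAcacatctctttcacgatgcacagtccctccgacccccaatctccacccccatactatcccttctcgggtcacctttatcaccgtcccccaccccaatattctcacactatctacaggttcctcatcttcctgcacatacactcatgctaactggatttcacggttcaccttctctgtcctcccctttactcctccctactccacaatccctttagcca
The 3 windows held different letters. Over the 300 bases that also take in the first 50 of the transcript, Igfbp2 had 3 matches to GGGCGG, 2 to ACGTG and 2 to GCGTG, with a GC content of 67.7%. The 2 matches to ACGTG are the same CACGTG read on each strand. Igfbp4 had 1 match to TATAAA, at positions -22 to -17 with the first transcribed base counted as 0, and a GC content of 71.3%. Igfbp6 had the same letters only on the other strand and farther away, at -224 to -219, and a GC content of 50%. Of 21603 promoters of protein-coding genes of the same length, 13.2% held TATAAA, 42.8% GGGCGG, 20.8% ACGTG and 37.2% GCGTG, and the median GC content was 54.3%. None of the 3 held GTAAACA, found in 3.17% of promoters, or TGANTCA, found in 7.12%. These matches are letters in a window and say nothing of a factor.

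Library size and content set the precision of what follows. The 6 libraries held 1918198 to 2837397 counts in genes, so that a count of 0 allowed up to 1.04 to 1.51 CPM, counts in 1000000 after TMM scaling of the library size. The library kit reads transcripts only at their 3′ ends, so counts were compared without division by length. Libraries spread more at day 7 than at day 5, with a biological coefficient of variation of 0.295 against 0.0905. Mitochondrial protein genes took 2.60% to 2.72% of counts at day 5, 2.26% in mouse 1 at day 7 and 0.924% to 0.926% in the other two day 7 libraries, and their part in the results was not tested. The epithelial label held, since all 10 epithelial markers had counts and summed to 12000 to 18300 CPM in every library. Acinar markers summed to 11.5 to 20.6 CPM at day 5 and 21.5 to 45.5 CPM at day 7, with 5 of the 10 in the files, Prol1, Lpo, Dcpp1, Dcpp2 and Bpifa2, at 0 throughout.

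Markers of other cell types were low or absent. The 12 fibroblast markers summed to 0.72 to 1.51 CPM at day 5 and 1.92 to 3.12 CPM at day 7, with Col1a2, Col3a1, Lum and Dpt at 0 in all 6 libraries. The 10 endothelial markers summed to at most 1.53 CPM in any library, with Cdh5, Tek, Erg and Plvap at 0. The 12 macrophage markers summed to 2.51 to 2.89 CPM at day 5 and 3.83 to 6.85 CPM at day 7, with 7 of them at 0, among them Adgre1 and Csf1r. The 8 myoepithelial markers summed to 1.51 to 2.47 CPM at day 5 and 7.83 to 13.5 CPM at day 7, with Actg2 and Oxtr at 0. The 6 pericyte markers summed to 54.4 to 63.0 CPM at day 5 and 54.8 to 87.8 CPM at day 7, with Cspg4, Abcc9 and Higd1b at 0 and nearly all counts in Notch3, and the 6 erythroid markers had 1 count in all. The acinar, fibroblast, myoepithelial and macrophage sums moved with the day, and their part in the results was not tested. The macrophage and acinar lists did not move as a whole. The macrophage rise lay in Cd68, with 7 counts at day 5 and 39 at day 7, while Cx3cr1 went from 11 to 0. Most of the acinar rise lay in Aqp5 (56 to 106 counts) and Chrm3 (57 to 107), while Amy1 went from 15 to 6. In the myoepithelial list Acta2 went from 0 to 40 counts (edgeR adjusted p = 0.002623). Mylk (13 to 27), Myl9 (1 to 7), Cnn1 (0 to 4) and Tagln (0 to 3) were also higher, and Myh11 went from 1 to 0. Acta2, Cnn1 and Tagln were tested only through their day 7 counts and had to be higher there. In bulk RNA, fewer cells of a type and less RNA per cell cannot be told apart, and the same holds for more.

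Of the 10 genes, Igfbp2, Igfbp4 and Igfbp6 rose from day 5 to day 7 (3 of 10, all higher), none fell, and the other 7 did not pass the test. To pass, a gene needed an adjusted p under 0.05 and a log2 fold change above 0.6 or below -0.6 in the edgeR quasi-likelihood F test with Benjamini-Hochberg adjustment over all 15792 genes. Of all genes tested, 12.0% passed in either direction and 7.22% passed as higher at day 7. All 3 were binding proteins, which makes 3 of the 6 binding proteins and 0 of the 4 receptors and adaptors. Of those 4, 2 had an unadjusted p under 0.05 in edgeR, Igf1r and Igf2r, and DESeq2 and limma voom also called 0. The days did not overlap for 4 of the 10, Igfbp3, Igfbp4, Igfbp6 and Igf1r, against 31.0% of all genes. The median log2 fold change was 0.83 over the 10 genes and -0.01 over all genes tested, and 9 of 10 values were above 0. Igfbp5 and Igfbp6 met the minimum of counts only through day 7 and had to be higher there. Both are among these 9, and Igfbp6 is among the 3 that passed and the 4 without overlap. With the mouse as a replicate block, 5 of 10 passed, against 14.8% of all genes, with Igfbp3 higher and Igfbp7 lower at day 7.

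**Figure D1:**
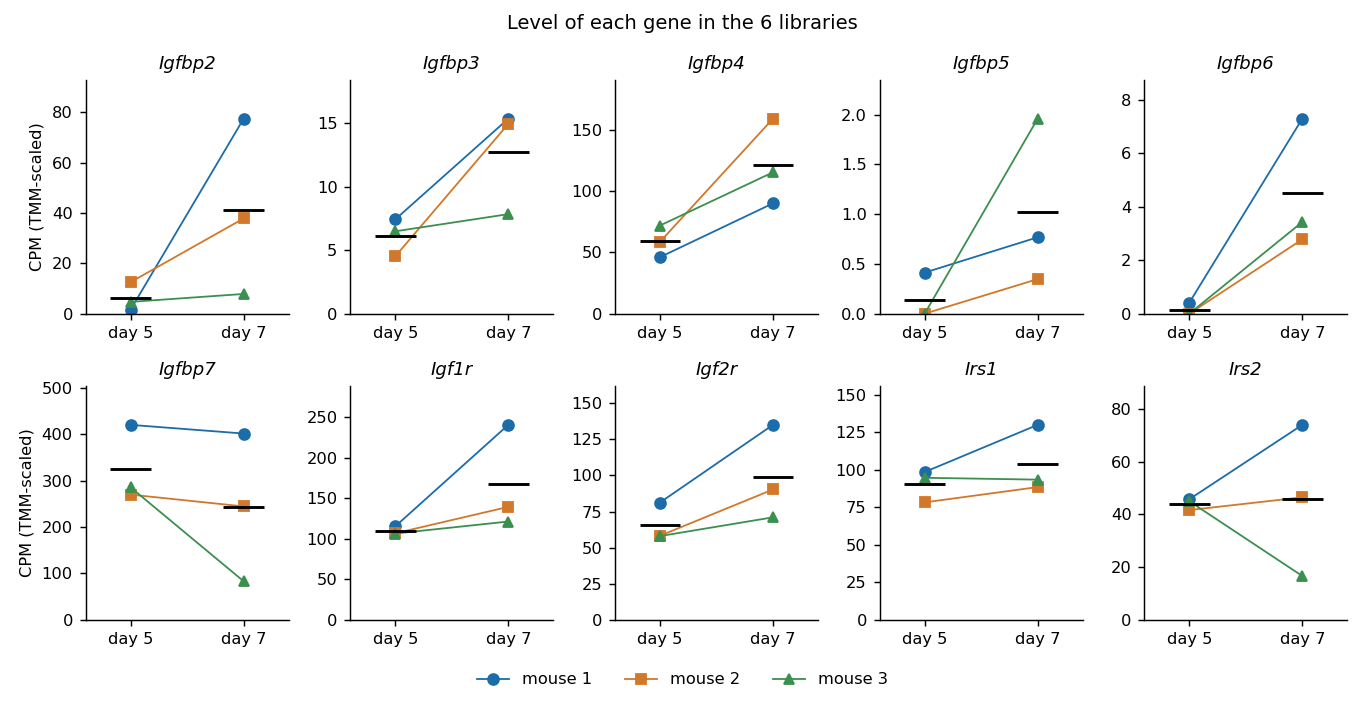
Level of each of the 10 genes in CPM (TMM-scaled) at day 5 and day 7, with 1 colour and marker per mouse, lines joining the libraries of a mouse and black bars at the mean of 3. Igfbp4 and Igfbp6 sit higher at day 7 without overlap, and in Igfbp7 and Irs2 the day 7 library of mouse 3 sits far below all others.

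Igfbp4 had the most counts of the 3 genes that rose. IGFBP4 is a secreted inhibitor of IGF action that the protease PAPP-A cuts to free the ligand. Its level was 46.2, 58.7 and 72.0 CPM at day 5 in mice 1, 2 and 3, and 90.1, 159 and 116 CPM at day 7. Every day 7 library was above every day 5 library, and each mouse was higher at day 7 than at day 5, by 0.96, 1.44 and 0.68 on the log2 scale. The means were 59.0 ± 12.9 CPM at day 5 and 122 ± 35.0 CPM at day 7 (SD, n = 3), and the edgeR log2 fold change was 1.04 (SE 0.24, 95% interval 0.55 to 1.54, adjusted p = 0.006488). The direction held in every alternative, and the call ended against a minimum fold (glmTreat, adjusted p = 0.142), without day 5 mouse 1 (0.0708), day 5 mouse 2 (0.0594) or day 7 mouse 2 (0.0614), and without both libraries of mouse 2 (0.264). A stretch of 151 of the last 500 bases of Igfbp4 matched the long noncoding gene Gm64906 at 95% identity or more, and how reads that fit several places were counted is not given in the sources used here.

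Igfbp2 rose by a larger fold than Igfbp4 and spread widely between mice. IGFBP2 binds both IGFs and carries an integrin-binding motif. Its counts were 4, 25 and 13 at day 5 and 202, 109 and 16 at day 7, which are 1.65, 12.6 and 4.68 CPM against 77.5, 37.8 and 7.83 CPM. The day 7 library of mouse 3 lay below the day 5 library of mouse 2, so the days overlapped, although each mouse was higher at day 7 than at day 5. The rise within a mouse was 5.55, 1.59 and 0.74 on the log2 scale. The edgeR log2 fold change was 2.78 (SE 0.61, 95% interval 1.50 to 4.06, adjusted p = 0.005485). The call ended with robust dispersion estimates (adjusted p = 0.206), in DESeq2 (2.71, adjusted p = 0.0844), without day 5 mouse 1 (0.0542) or day 5 mouse 3 (0.0523), and without both libraries of mouse 1 (log2 fold change 1.49, adjusted p = 0.059) or of mouse 2 (3.72, adjusted p = 0.112).

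Igfbp6 went from almost no counts to a low level. IGFBP6 prefers IGF2 over IGF1. It had 1, 0 and 0 counts at day 5 and 19, 8 and 7 counts at day 7, or 0.412, 0 and 0 CPM against 7.29, 2.78 and 3.43 CPM. All day 5 libraries were at or under the level that 3 counts give, and all day 7 libraries were above it. The summed counts were 1 and 34, a ratio of 32.5 after TMM scaling of the library size (exact 95% interval 5.45 to 1320). Without day 5 mouse 1, the only day 5 library with a count, Igfbp6 was at least 7.18-fold higher at day 7 against a floor of 3 counts over the group. The edgeR log2 fold change of 4.59 (SE 0.91, adjusted p = 0.002654) depends on the prior count. Igfbp6 was tested only because of its day 7 counts, so its direction was fixed by the filter. The call ended only without both libraries of mouse 2 (adjusted p = 0.0859), and filters on a higher count removed the gene.

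Igfbp3 and Igfbp5 did not pass the test. IGFBP3 is the main IGF carrier of serum. Igfbp3 had 7.42, 4.52 and 6.48 CPM at day 5 and 15.3, 14.9 and 7.83 CPM at day 7. The days did not overlap, but only narrowly, with 7.83 CPM (16 counts) in day 7 mouse 3 against 7.42 CPM (18 counts) in day 5 mouse 1. Mice 1 and 2 lay close together at day 7 with mouse 3 lower. The edgeR log2 fold change was 1.05 (SE 0.35, 95% interval 0.30 to 1.79, adjusted p = 0.0621). It passed with the mouse as a replicate block (1.01, adjusted p = 0.0342), with no filter on low counts (adjusted p = 0.0327), without day 7 mouse 3 (1.27, adjusted p = 0.00716) and without both libraries of mouse 3 (1.31, adjusted p = 0.0369). Igfbp5, whose protein binds matrix and is a product of many mesenchymal cells, had 1, 0 and 0 counts at day 5 and 2, 1 and 4 at day 7. The ratio of 7 to 1 counts was 6.69 after TMM scaling of the library size (exact 95% interval 0.859 to 301). A difference was therefore not detectable at this depth (edgeR adjusted p = 0.245).

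Igfbp7 was the most abundant of the 10 genes in 5 of the 6 libraries and the only binding protein with a negative value. IGFBP7 binds IGFs weakly and is also found in basement membrane. Its level was 421, 270 and 286 CPM at day 5 and 402, 245 and 83.2 CPM at day 7. Mice 1 and 2 changed little, by -0.07 and -0.14 on the log2 scale, while mouse 3 was lower at day 7 by -1.78. The edgeR log2 fold change was -0.42 (SE 0.35, 95% interval -1.16 to 0.32, adjusted p = 0.483). It passed with the mouse as a replicate block (-0.63, adjusted p = 0.0482) and without day 7 mouse 1 (-0.98, adjusted p = 0.0284). Of the last 500 bases of Igfbp7, 129 also lay in exons of Polr2b on the opposite strand, which had 163 to 269 counts a library (log2 fold change -0.40, adjusted p = 0.197), and whether counting used strand is not given in the sources used here, so reads of Igfbp7 and Polr2b from the shared bases may not have been told apart.

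**Figure D2:**
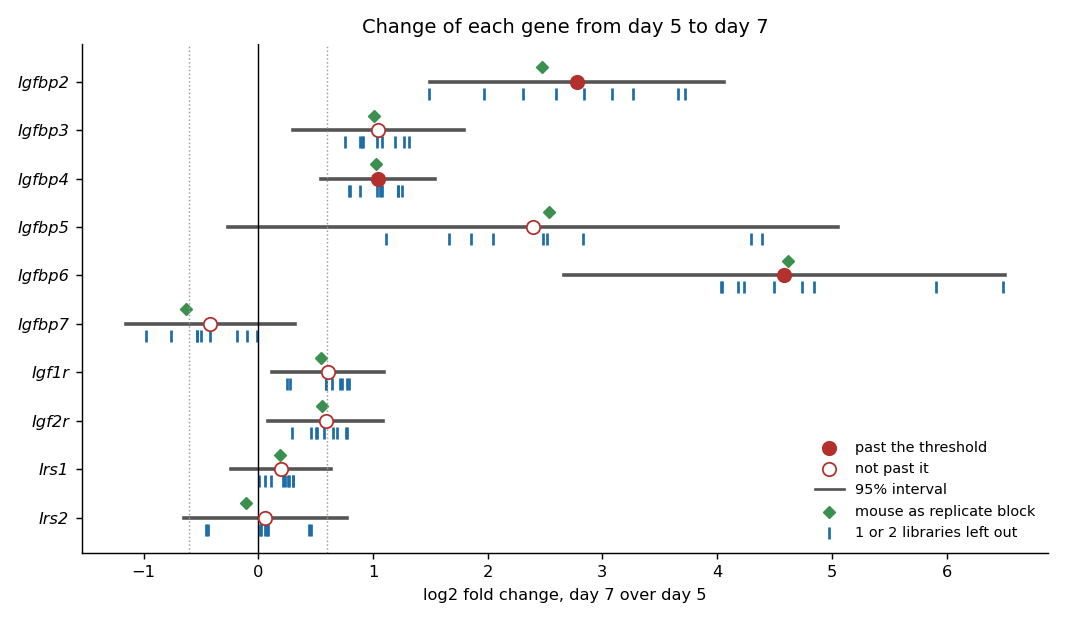
Log2 fold change of each gene, day 7 over day 5, with its 95% interval (grey line), the fit with the mouse as a replicate block (green diamond) and the fits without 1 library or without 1 mouse (blue ticks); dotted lines mark 0.6 and -0.6. Filled circles are the 3 genes past the threshold, and only Irs2 has ticks on both sides of 0.

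Igfbp7 made up a smaller share of the binding protein transcripts at day 7 than at day 5 in each mouse. The 6 genes summed to 477, 346 and 369 CPM at day 5 and to 593, 460 and 220 CPM at day 7 in mice 1, 2 and 3. The sum was higher at day 7 in mice 1 and 2 and lower in mouse 3, so the days overlapped. Igfbp7 made up 88.2%, 78.1% and 77.4% of binding protein counts at day 5 and 67.8%, 53.2% and 37.9% at day 7. Every day 7 share was below every day 5 share, and the exact binomial intervals did not touch (74.8% as the lowest bound at day 5, 70.1% as the highest at day 7). The share of Igfbp4 was 9.69%, 17% and 19.5% at day 5 and 15.2%, 34.6% and 52.6% at day 7, and overlapped between the days through mouse 1. The share of Igfbp2 was 0.346%, 3.63% and 1.27% at day 5 and 13.1%, 8.23% and 3.56% at day 7. In mouse 1, Igfbp2 gained the most share, and in mice 2 and 3 Igfbp4 did. A share rises when another gene falls, so these values and the levels above are not separate measurements, and the intervals cover counting error only.

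**Figure D3:**
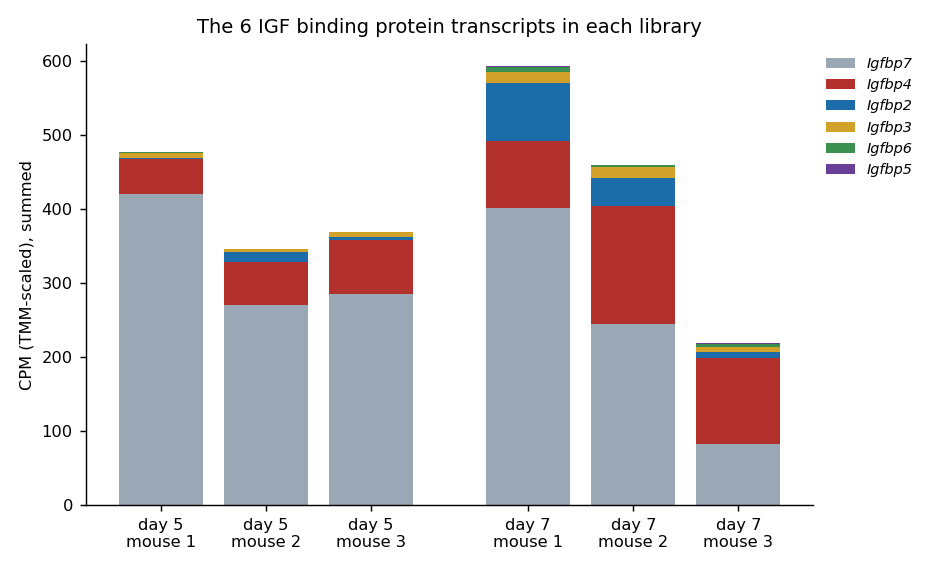
CPM of the 6 IGF binding protein transcripts stacked for each library, with day 5 on the left and day 7 on the right. Igfbp7 (grey) takes 77.4% to 88.2% of the stack at day 5 and 37.9% to 67.8% at day 7, and the total of mouse 3 at day 7, 220 CPM, is the lowest.

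The receptors were higher at day 7 in each mouse but did not pass the test. Igf1r (ENSMUSG00000005533, chromosome 7, 67601518 to 67883416, plus strand, 21 exons), the signalling receptor, had 116, 107 and 107 CPM at day 5 and 241, 139 and 121 CPM at day 7. The days did not overlap, and mouse 1 was well above the other two at day 7. The log2 fold change was 0.61 (SE 0.23, 95% interval 0.12 to 1.10, edgeR adjusted p = 0.0972), and it passed with no filter on low counts (adjusted p = 0.0354) and without day 7 mouse 3 (0.79, adjusted p = 0.0083). Igf2r (ENSMUSG00000023830, chromosome 17, 12901293 to 12988614, minus strand, 48 exons), which clears IGF2, had 81.2, 58.2 and 58.0 CPM at day 5 and 135, 90.3 and 71.0 CPM at day 7. Mouse 1 at day 5 lay above mouse 3 at day 7, so the days overlapped. Its log2 fold change was 0.59 (SE 0.24, 95% interval 0.08 to 1.09, edgeR adjusted p = 0.121), and it passed without day 7 mouse 3 (0.77, adjusted p = 0.0119).

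The adaptors showed no difference that passed the test. Irs1 (ENSMUSG00000055980, chromosome 1, 82210822 to 82269338, minus strand) had 98.6, 78.3 and 94.7 CPM at day 5 and 130, 88.5 and 93.5 CPM at day 7. The days overlapped, with mice 2 and 3 at day 7 inside the day 5 range. The log2 fold change was 0.20 (SE 0.21, 95% interval -0.23 to 0.63, edgeR adjusted p = 0.589). Irs2 (ENSMUSG00000038894, chromosome 8, 11034681 to 11059499, minus strand), a known FOXO target as well as an adaptor, had 45.8, 41.7 and 45.0 CPM at day 5 and 74.0, 46.5 and 16.6 CPM at day 7. At day 5 the mice were close together. At day 7 mouse 1 and, narrowly, mouse 2 were above all day 5 libraries, and mouse 3 was below them. The log2 fold change was 0.06 (SE 0.34, 95% interval -0.64 to 0.77, edgeR adjusted p = 0.953), and its sign turned with the mouse as a replicate block (-0.11) and without day 7 mouse 1 (-0.45).

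The spread between mice at day 7 was a feature of several of the 10 genes. Among 8171 genes whose mean over the 6 libraries was 10 CPM or more, with a count in each day 7 library, the highest library was 1.56 times the lowest at the median. The same ratio was 9.89 for Igfbp2, 4.83 for Igfbp7 and 4.45 for Irs2, and 0.233%, 1.52% and 1.88% of genes had a larger one. Igfbp4, Igf1r, Igf2r and Irs1 lay at 1.47 to 1.98. At day 5, among 8150 genes chosen in the same way, the median ratio was 1.23. Igfbp2 had 7.61, which 0.0123% of them exceeded, but its lowest day 5 library held only 4 counts, fewer than most genes of that set. At day 7, mouse 1 held the highest level of 8 of the 10 genes, as it did for 31.3% of all genes tested, and mouse 3 the lowest of 6 of the 10, as it did for 34.1% of all genes. Mouse 1 also held the highest level of 8 of the 10 at day 5, as for 34.5% of all genes. These 8 include Igfbp5 and Igfbp6, where mouse 1 had 1 count and the other mice 0. They also include Irs2, at 45.8 CPM in mouse 1 against 45.0 CPM in mouse 3.

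The remaining genes of the IGF axis were read from a list of 94 genes, of which 85 had a count and 83 were tested. Of these 83, 17 rose and 1 fell, together 21.7% against 12.0% of all genes, and their median log2 fold change was 0.39. Of those that rose, H19 and Stc2 met the minimum of a count in 2 libraries only through day 7, and had to be higher there. Neither ligand passed in edgeR or limma voom, and in DESeq2 Igf1 did not pass and Igf2 got no adjusted p. Igf1 had 27, 6 and 23 counts at day 5 and 31, 27 and 16 at day 7 (log2 fold change 0.35, SE 0.39, edgeR adjusted p = 0.618). Igf2 had 0 counts in all day 5 libraries and 3, 3 and 0 at day 7 (edgeR adjusted p = 0.139). No library lay above a floor of 3 counts, so a difference in Igf2 was not detectable at this depth. Ins1 and Ins2, the insulin genes, had no counts. Insr, the insulin receptor, rose from 12.8, 9.54 and 10.4 CPM to 17.3, 23.6 and 23.0 CPM, without overlap (log2 fold change 0.95, SE 0.28, edgeR adjusted p = 0.0321), but the call ended in 9 of 21 alternatives, among them those without day 5 mouse 1 (0.0787), day 5 mouse 2 (0.158), day 5 mouse 3 (0.151) or day 7 mouse 2 (0.12).

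Of the genes for the cleavage of binding proteins, 4 rose and 1 fell among 9 tested, 55.6% against 12.0% of all genes. Pappa, the protease PAPP-A that cuts IGFBP4, had 2 counts in every day 5 library and 71, 30 and 14 at day 7. It rose without overlap and in each mouse, by a log2 fold change of 4.08 (SE 0.60, 95% interval 2.82 to 5.35, edgeR adjusted p = 0.0002152), and passed in all 21 alternatives (adjusted p up to 0.0435). Adam28, a metalloprotease, rose from 13 counts in all to 80 (log2 fold change 2.48, adjusted p = 0.002852). Adam12, another, fell from 68.1, 71.3 and 69.5 CPM to 42.2, 38.5 and 32.8 CPM, without overlap (log2 fold change -0.87, adjusted p = 0.00853), a call that ended with glmTreat (0.28) and without day 5 mouse 2 (0.0635), day 5 mouse 3 (0.0596) or both libraries of mouse 2 (0.191). The other two, Stc2 and Ctsd, are named after their values were seen. Stc2, a stanniocalcin that inhibits PAPP-A, had 0 counts at day 5 and 7, 6 and 0 at day 7, at least 4.14-fold higher against 3 counts over the group (adjusted p = 0.0473), a call that ended with the replicate block (0.0776) and without any 1 of the day 5 libraries (0.134 to 0.142), and in 7 of 14 alternatives in all, among them limma voom (0.0614) and upper quartile scaling (0.0501). DESeq2 gave Stc2 no adjusted p, and it was not tested without day 7 mouse 1 or mouse 2. Ctsd, the lysosomal protease cathepsin D, had a log2 fold change of 0.72 (adjusted p = 0.0425), and its call ended in 12 of 21 alternatives, among them those without day 5 mouse 1, 2 or 3 (0.131 to 0.204), day 7 mouse 2 (0.0736) or day 7 mouse 3 (0.0649). Among the other binding proteins, 1 of 4 tested passed, Htra1, a serine protease with an IGFBP-like domain, which rose from 92.8, 89.4 and 102 CPM to 150, 206 and 259 CPM (log2 fold change 1.11, SE 0.21, edgeR adjusted p = 0.001944). Its call ended with glmTreat (0.0664) and without both libraries of mouse 2 (0.155).

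Downstream of the receptors, the genes that passed were all higher at day 7. In the PI3K-AKT list 3 of 17 passed (17.6%, against 12.0% of all genes), namely Pik3ip1, an inhibitor of PI3K (log2 fold change 2.50, SE 0.37, edgeR adjusted p = 0.0002412), Pik3r1, a regulatory subunit (1.48, SE 0.24, adjusted p = 0.000424), and Pik3cb, a catalytic subunit (1.28, SE 0.27, adjusted p = 0.004637). In the mTORC1 list 3 of 17 passed (17.6%), and 2 in DESeq2 and in limma voom, and the 3 were the sestrins, which restrain mTORC1, with Sesn2 at 1.64 (SE 0.26, adjusted p = 0.0003559), Sesn3 at 0.90 (SE 0.20, adjusted p = 0.006114) and Sesn1 at 1.16 (SE 0.37, adjusted p = 0.046). Of FOXO factors and targets 4 of 14 passed (28.6%), Fbxo32 at 1.06, Bcl6 at 0.82, Txnip at 1.35 and Foxo4 at 1.38 on the log2 scale, the last named after its values were seen. Of the 14 receptor adaptors tested beside Irs1 and Irs2, 0 passed in edgeR, where 1 had an unadjusted p under 0.05, and 0 in DESeq2 or limma voom. H19, the noncoding neighbour of Igf2 on chromosome 7, had 0, 0 and 2 counts at day 5 and 27, 14 and 5 at day 7. That is a ratio of 22.0 after TMM scaling of the library size (exact 95% interval 5.75 to 187, edgeR adjusted p = 0.002904). The calls of Pik3ip1, Pik3r1, Sesn2, Adam28 and H19 ended only without both libraries of mouse 2 (0.0911 to 0.175), where those of the other downstream genes ended too (0.165 to 0.499). Filters on a higher count removed H19, which left it 19 alternatives. With glmTreat, the calls of Pik3cb (0.0622), Sesn3 (0.234), Fbxo32 (0.132), Bcl6 (0.353), Txnip (0.126) and Sesn1 (0.24) ended. The call of Foxo4 ended in 7 of 21 alternatives in all. Without 1 library, the call also ended for Pik3cb (0.0592) and Sesn3 (0.069) without day 5 mouse 2, and for Fbxo32 without day 5 mouse 1 (0.0683) or mouse 2 (0.0686). It ended for Bcl6 (0.0576 to 0.0737) and Foxo4 (0.0595 to 0.152) without any 1 of the day 5 libraries or day 7 mouse 2, for Txnip without day 5 mouse 2, day 5 mouse 3 or day 7 mouse 2 (0.117 to 0.201, and in 8 of 21 alternatives in all), and for Sesn1 without any library but day 7 mouse 1 (0.0604 to 0.239). The call of Sesn1 ended in 14 of 21 alternatives in all, among them DESeq2 (0.0686), limma voom (0.0619), upper quartile scaling (0.0552) and library totals (0.0656).

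**Figure D4:**
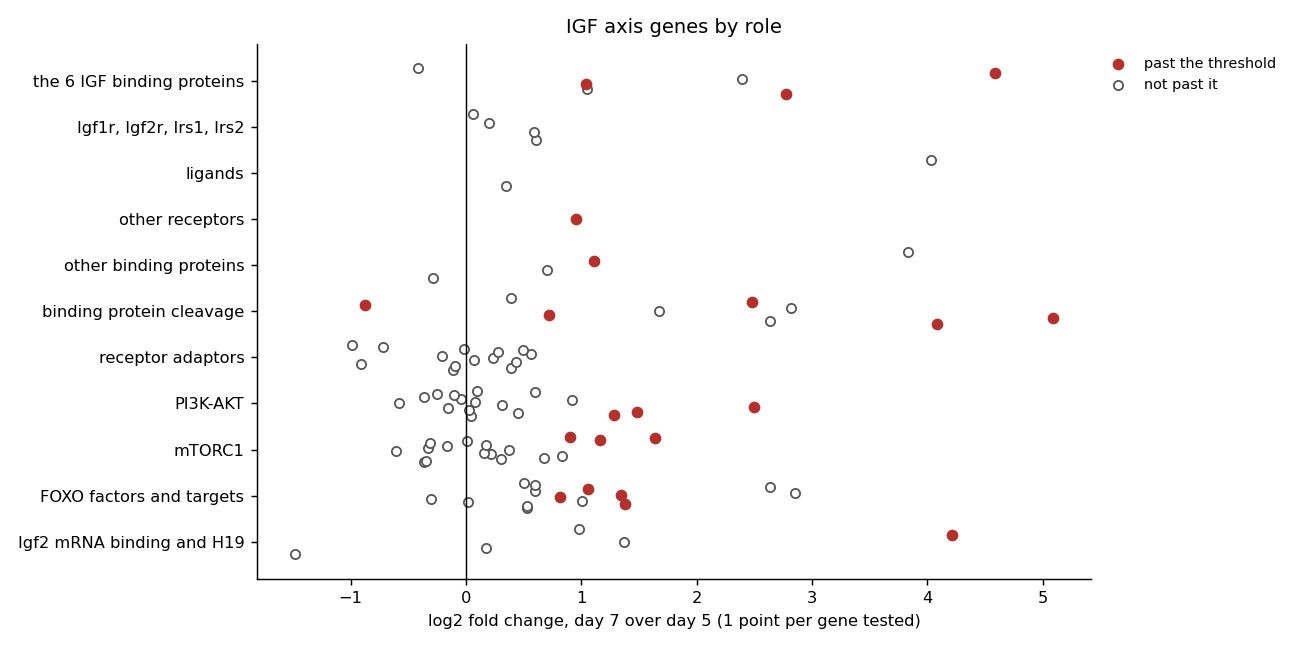
Log2 fold change, day 7 over day 5, of each gene tested, by role in the IGF axis, with 1 point per gene and filled points past the threshold. Of the 83 genes outside the first 2 lines, 17 are filled to the right of 0 and 1, Adam12, to the left.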

How the data were processed

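RNA was measured in 6 mSGO libraries, day 5 and day 7 from each of 3 mice. The authors deposited whole-number read counts per Ensembl gene ID, not normalised, from QuantSeq 3′ reads on GRCm39, and their processing notes name edgeR. The aligner, counter, annotation release and strand setting are not given in the sources used here. The 5 entries per file that name no gene (13.7% to 14.4% of reads at day 5, 9.12% to 9.74% at day 7) were left out. Names and positions came from GENCODE vM39, which matched 43465 of 47643 IDs. A gene entered the test if 2 or more libraries held a count of it. The test was edgeR 4.0.16 (glmQLFTest, two-sided, TMM, robust = FALSE, R 4.3.3), with day as the only term and Benjamini-Hochberg adjustment over 15792 genes. As in the study's methods, genes past the threshold had an adjusted p below 0.05 and a fold change beyond 0.6 on the log2 scale in either direction. The code was tested on simulated data with known changes.

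Same-numbered libraries came from the same mouse per the labels, so the mouse was also fitted as a replicate block (paired analysis). Deviations of paired libraries from their day means correlated at 0.14, -0.10 and 0.16 over 8171 genes. The animals are the replicates, and p-values measure the spread between these libraries. Values of 0 counts were read against a floor of 3 counts, and intervals are at 95%. Folds given as "at least" take the day 7 counts as exact and leave out their counting error. The intervals of ratios and shares are exact and cover counting error only. Reads carried no molecular identifiers, so copies of the same molecule count separately, and these intervals may be too narrow. Libraries of a day differed by more than counting error (chi-square per degree of freedom of at least 2.09). The last 500 bases of each gene were compared with GENCODE transcripts by blastn 2.17.0 (at least 50 bases at 95% identity). The named genes are all 10, up to 3 others per list past the threshold by smallest p, and Igf1, Igf2, Insr and Igfbp1. The genes and lists were chosen with earlier results of these data known. Alternatives were other scalings (DESeq2 1.42.0 size factors, upper quartile, library totals), other filters, the block, robust = TRUE, DESeq2, limma 3.58.1 voom with a weight per day, glmTreat, leaving out the most abundant ID, and leaving out each library or mouse.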

Additional observations from a re-analysis of the deposited data

How the results depend on the processing

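Over all genes 1901 passed (1140 higher, 761 lower), 623 with glmTreat, and 159 to 2575 when 1 library or 1 mouse was left out. Scaling by library totals alone turned the split to 950 higher and 1008 lower and moved the median of all genes by -0.09 on the log2 scale. Of the 10 genes 3 passed, 5 with no filter on low counts, 5 with the replicate block, and 0 to 6 with libraries left out. The 0 came without both libraries of mouse 2, where 3 of the 10 had an unadjusted p under 0.05 in edgeR and 1.08% of all genes passed, and the 6 came without day 7 mouse 3, where 16.7% of all genes passed. Without day 5 mouse 1 only Igfbp6 passed. Of the other IGF axis genes 18 passed, 6 with glmTreat and 1 to 25 with libraries left out. The replicate block (paired by mouse) added the calls of Igfbp3 and Igfbp7 and changed no other call among the 10 genes. Of the other named genes it ended that of Stc2 (log2 fold change 4.90, adjusted p = 0.0776). The sign of the log2 fold change turned only for Irs2, to -0.031 with library totals, -0.11 with the replicate block, -0.14 in limma voom, and -0.45 to 0.46 with libraries left out (-0.45 without day 7 mouse 1, -0.44 without both libraries of mouse 1). DESeq2 gave no adjusted p for Igfbp5, Igf2 and Stc2. The filters filterByExpr and a mean count of 10 removed Igfbp5, Igfbp6, H19, Igf2 and Stc2. Apart from the changes given here and beside each gene, the cause of which was not tested, the 10 genes kept their side of the threshold. At this depth levels under 1.04 to 1.51 CPM could not be separated from 0.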
